A study of Mus musculus with 25 samples.

Results

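Hepcidin is the liver hormone that sets how much iron enters the blood, and the genes described here are hepcidin and 9 partners in its control and in liver iron handling. Loci were taken by gene name: Hamp, Hamp2, Bmp6, Id1, Smad7, Tfr2, Tfrc, Slc40a1, Fth1 and Ftl1. The 10 genes lie in 10 of the 46499 loci listed for mice aged 20 weeks and in 10 of the 46052 loci listed for mice aged 39 weeks. None of the 10 genes passed limma's test between genotypes or with metformin after correction over all loci. The data are therefore given as levels, intervals, spread between mice and covariation.

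Hepatocytes release hepcidin, which binds ferroportin (the product of Slc40a1) on iron-exporting cells and sends it for degradation, so that less iron reaches the plasma. BMP6 from liver endothelial cells is the main signal of iron stores: it activates SMAD proteins in hepatocytes, which switch on Hamp together with Id1 and the inhibitor Smad7, and inflammation raises Hamp through IL-6 and STAT3. Ferritin (Fth1, Ftl1), ferroportin and the transferrin receptor (Tfrc) are also tuned after transcription, by iron regulatory proteins that bind hairpins in their mRNAs.

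All 25 mice were C57BL/6, carried either the Ncoa5+/- genotype or wild type Ncoa5, and were sampled as whole liver, RNA of which was sequenced. The 20-week cohort held 4 untreated mice labelled Ncoa5+/- and 4 untreated wild type mice. The 39-week cohort held 5 metformin-treated and 5 untreated mice labelled Ncoa5+/-, and 3 metformin-treated and 4 untreated wild type mice. Treated mice drank about 250 mg/kg/day of metformin, an antidiabetic biguanide, for 31 weeks from the age of 8 weeks. Standard diet was given to all, and the labels give neither sex nor how the Ncoa5 allele was made. Ncoa5 encodes a nuclear receptor coactivator, and its transcript did not separate the labels: it averaged 3.85 ± 0.884 FPKM in mice labelled Ncoa5+/- and 4.01 ± 0.944 FPKM in wild type mice at 20 weeks (SD, n = 4 each), and at 39 weeks the limma log2 difference between the labels was -0.20 ± 0.11 (SE, adjusted p = 0.872). FPKM is fragments scaled to transcript length and to library size, by an option that is not given. The cohorts were prepared and sequenced apart, so values are compared within a cohort.

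Each value belongs to a locus as the authors' assembly drew it, and that matters for the hepcidin pair and for Bmp6. At 20 weeks Hamp (chr7:30942371-30944017) and Hamp2 (chr7:30922372-30924181) were separate loci on GRCm38. At 39 weeks they formed 1 locus (chr7:30922372-30944411), so its level is that of both genes. Hamp2, a mouse duplicate of Hamp, shares 233 of 249 coding bases with it (93.6%) and 92.4% of the aligned mRNA in GENCODE transcripts, so reads can be shared and the split between the genes is uncertain. Bmp6 (chr13:38345716-38499728) was 1 locus at 20 weeks and 2 loci of one span (chr13:38343968-38528824) at 39 weeks. In the file's order the first of these stands among plus-strand genes (37 of 37 neighbours of known strand) and the second among minus-strand genes (35 of 35), while Bmp6 itself is a plus-strand gene. Whether the second locus holds antisense or misassigned reads was not tested. The Ftl1 locus (chr7:45457944-45459884) also names Gm22133, a small RNA gene. The remaining loci have 1 name each: Id1 (chr2:152736251-152737410), Smad7, Tfr2 (chr5:137569840-137587481), Tfrc (chr16:32608920-32632794), Slc40a1 (chr1:45908068-45926523) and Fth1 (chr19:9982703-9985092).

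The promoters of Hamp and Hamp2 are shown because the sites through which BMP-SMAD and STAT3 signals reach hepcidin lie in them. The 150 bases before each start are from RefSeq (GRCm38.p6), both on the minus strand, for Hamp at chr7:30944030-30944179 and for Hamp2 at chr7:30924182-30924331. Capitals mark exact matches to GGCGCC, the core of the BMP-responsive element, and to TTCNNNGAA, the STAT element.
Hamp: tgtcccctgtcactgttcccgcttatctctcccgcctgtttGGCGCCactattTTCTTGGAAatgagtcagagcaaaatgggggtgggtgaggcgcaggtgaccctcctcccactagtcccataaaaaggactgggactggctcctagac
Hamp2: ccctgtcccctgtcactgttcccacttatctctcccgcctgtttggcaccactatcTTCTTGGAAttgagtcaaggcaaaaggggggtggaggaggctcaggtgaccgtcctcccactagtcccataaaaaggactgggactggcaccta
Set against each other without gaps, by their STAT elements, the stretches share 147 columns, of which 135 are identical (91.8%). In Hamp the GGCGCC core begins at position -109 and the STAT element at position -97, counted from the annotated start. Hamp2 keeps the STAT element and carries GGCACC in place of the core, a G4A substitution counted from 1 at the first base of the Hamp hexamer. Promoter windows were found for 7 of the 10 genes. Searched on both strands over 250 bases, GGCGCC occurs in 9.59% of 32817 mouse promoter windows and TTCNNNGAA in 7.01%, so neither match is rare by itself. The motifs do not overlap each other in Hamp.

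The hairpins bound by iron regulatory proteins sit in the mRNAs of 4 of the genes and are shown because through them these genes are tuned after transcription. A search of GENCODE M21 transcripts (GRCm38) for a bulged C, 5 paired bases and the loop CAGTGN found 1 element in the 5′ UTR of Fth1 (chr19:9982732-9982760, plus strand), of Ftl1 (chr7:45459779-45459807, minus strand) and of Slc40a1 (chr1:45925465-45925493, minus strand). It found 4 elements in the 3′ UTR of Tfrc, all on the plus strand, at chr16:32631219-32631247, chr16:32631598-32631626, chr16:32631663-32631691 and chr16:32631710-32631738. In the 29 bases of each element, capitals mark the loop.
Fth1 5′ UTR: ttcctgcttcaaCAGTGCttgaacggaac
Ftl1 5′ UTR: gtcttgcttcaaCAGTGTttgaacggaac
Slc40a1 5′ UTR: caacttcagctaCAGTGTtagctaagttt
Tfrc 3′ UTR, element 1: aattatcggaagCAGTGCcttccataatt
Tfrc 3′ UTR, element 2: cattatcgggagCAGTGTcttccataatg
Tfrc 3′ UTR, element 3: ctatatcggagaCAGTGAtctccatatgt
Tfrc 3′ UTR, element 4: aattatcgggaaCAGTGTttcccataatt
Binding to a 5′ UTR element blocks translation, while binding to the Tfrc elements protects the mRNA from decay, so Tfrc is the 1 gene of the 4 whose mRNA level is known to follow these proteins. The same letters and stem occur somewhere in the transcripts of 294 of 21877 protein-coding genes (1.34%), and in 4 of the 10 genes described here.

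The 10 genes cover a wide range of levels. Hamp ranked 21 of all loci by mean FPKM in each cohort (4812 FPKM at 20 weeks, and 4269 FPKM for the joint locus at 39 weeks). Abundant liver genes such as Alb and Serpina1a are listed at 0 in every mouse, so its true rank may be lower. Both ferritin chains were of the same order: Ftl1 averaged 2161 FPKM at 20 weeks and 4330 FPKM at 39 weeks, and Fth1 averaged 1636.5 and 2404 FPKM at those ages. Tfr2 (121 and 179 FPKM) and Slc40a1 (41.8 and 55.4 FPKM) formed the middle of the range, and Hamp2 at 20 weeks averaged 54.7 FPKM. Id1 (11.3 and 10.7 FPKM), Smad7 (5.63 and 6.84 FPKM), Tfrc (6.18 and 5.90 FPKM) and Bmp6 (0.836 FPKM at 20 weeks, 5.50 and 1.65 FPKM for its loci at 39 weeks) were the low end. In that order Tfrc and Smad7 lie within their spread between mice of each other, as do the joint hepcidin locus and Ftl1 at 39 weeks, all in FPKM, which is scaled by length. The age and the facility differ between the cohorts and cannot be told apart.

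**Figure D1:**
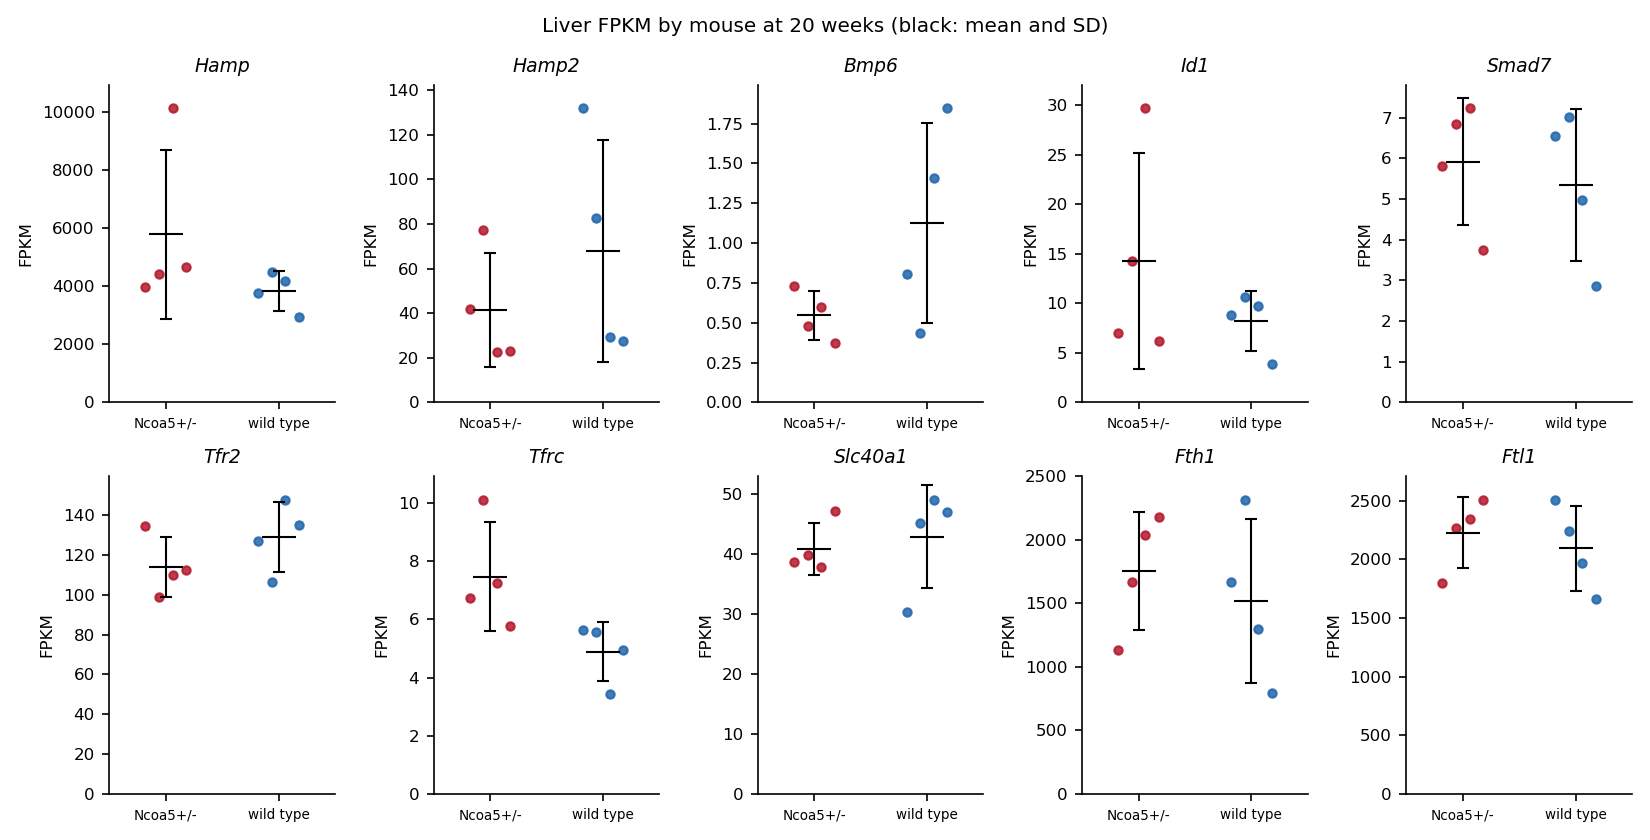
FPKM of each gene in each mouse at 20 weeks (y axis from 0, a scale per panel), mice labelled Ncoa5+/- in red at the left and wild type in blue at the right, with the mean and SD in black (n = 4 each). Tfrc is the panel without overlap, with 5.76 to 10.1 FPKM in mice labelled Ncoa5+/- and 3.42 to 5.62 FPKM in wild type mice, and 1 mouse labelled Ncoa5+/- stands at 10122.5 FPKM of Hamp.

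Hamp at 20 weeks read 3959, 4422, 10122.5 and 4652 FPKM in mice labelled Ncoa5+/- and 3754, 4475, 4184 and 2926 FPKM in wild type mice. Mouse 3 of the group labelled Ncoa5+/- had 10122.5 FPKM, while the other mice of its group lay between 3959 and 4652 FPKM, inside or next to the wild type range, and the groups overlap. The log2 fold change was 0.50 ± 0.31 (SE; 95% interval -0.21 to 1.21; adjusted p = 0.609), and 0.19 without that mouse. That mouse also had the highest hepatocyte marker sum, 8050 FPKM against 4031 to 5941 FPKM in the other 7 mice, and the lowest endothelial marker sum, 51.5 FPKM against 76.1 to 100.3 FPKM, whose part in the result was not tested. Hamp2 read 42.1, 77.3, 22.8 and 23.2 FPKM in mice labelled Ncoa5+/- and 132, 82.7, 29.5 and 27.6 FPKM in wild type mice. Its fold change lay on the other side of 0, at -0.58 ± 0.57 (SE; adjusted p = 0.696), with groups that overlap. Without wild type mice 3 and 4, whose titles differ in form from the others, it was -1.50 and still not called, with any 1 mouse left out it was -0.94 to -0.16 (-0.16 without wild type mouse 1), and with array weights it turned to 0.06. Hamp2 amounted to 0.225% to 3.52% of Hamp per mouse. Across mice of the same group no relation between the duplicates was detectable (Pearson r = -0.18, permutation p = 0.689, and Spearman rho = 0, p = 1, n = 8).

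At 39 weeks the joint Hamp and Hamp2 locus read 5489.7, 6272, 3401, 4484 and 3970.5 FPKM in treated and 3981, 5897, 3190.5, 6298 and 3054 FPKM in untreated mice labelled Ncoa5+/-. Wild type mice read 5473, 3824 and 1779 FPKM when treated and 4089.6, 5255, 2584 and 3524 FPKM when untreated. The 4 groups overlap, and mice of the same group differed by up to 3.08-fold. The log2 fold change of genotype was 0.33 ± 0.23 over both treatments (SE; 95% interval -0.17 to 0.83; adjusted p = 0.965), with 0.10 without treated wild type mouse 3 and 0.51 without treated wild type mouse 1. That of metformin over both genotypes was -0.03 ± 0.23 (95% interval -0.53 to 0.47; adjusted p = 0.967). Both intervals include 0, and that of genotype reaches 0.83 on the log2 scale.

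Bmp6, the ligand, was low at 20 weeks, with 0.733, 0.481, 0.598 and 0.372 FPKM in mice labelled Ncoa5+/- and 0.807, 0.439, 1.41 and 1.85 FPKM in wild type mice. Its mean was under 1 FPKM, so it was left out of the fit over all loci. The difference of -0.42 on the log2(FPKM + 1) scale gave an exact permutation p of 0.143 (two-sided, the smallest possible p being 0.0286). Group means were 0.546 ± 0.155 FPKM in mice labelled Ncoa5+/- and 1.13 ± 0.626 FPKM in wild type mice (SD, n = 4 each). At levels this low the added 1 makes the log2 difference smaller. The authors' deposited table gives Bmp6 a log2 fold change of -0.91 with q = 0.134, not marked significant. At 39 weeks its first locus read 5.71, 5.77, 4.75, 5.97 and 4.52 FPKM in treated and 5.18, 3.93, 6.10, 6.08 and 8.56 FPKM in untreated mice labelled Ncoa5+/-, against 5.19, 3.68 and 4.23 FPKM in treated and 4.80, 4.67, 5.56 and 8.78 FPKM in untreated wild type mice. All groups overlap, and the highest mice are mouse 4 of the untreated wild type group and mouse 5 of the untreated group labelled Ncoa5+/-. The second locus averaged 1.59 ± 0.418 and 1.54 ± 1.03 FPKM in treated and untreated mice labelled Ncoa5+/- (SD, n = 5 each), and 1.30 ± 0.544 and 2.12 ± 1.07 FPKM in treated and untreated wild type mice (n = 3 and n = 4). No adjusted p for either locus was below 0.441 in the 7 comparisons at 39 weeks.

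Id1 is an inhibitor of basic helix-loop-helix factors and the textbook BMP target. It varied more between mice of a group than 95.9% of tested loci at 20 weeks and 97.0% at 39 weeks. At 20 weeks it read 6.98, 14.3, 29.7 and 6.21 FPKM in mice labelled Ncoa5+/- and 8.80, 10.7, 9.70 and 3.86 FPKM in wild type mice. The highest was mouse 3, the mouse with the highest Hamp, and the groups overlap (log2 fold change 0.55 ± 0.47, adjusted p = 0.653). In the authors' deposited table Id1 is the only one of the 10 genes marked significant, with 15.3 FPKM in mice labelled Ncoa5+/- and 8.56 FPKM in wild type mice, a log2 fold change of 0.84 and q = 0.0286. That table called 294 of 13975 loci, while limma on the values per mouse called 0, and without mouse 3 the limma log2 fold change of Id1 was 0.13.

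At 39 weeks Id1 read 15.5, 13.9, 8.11, 20.2 and 7.21 FPKM in treated and 12.2, 13.1, 12.0, 9.25 and 3.28 FPKM in untreated mice labelled Ncoa5+/-, against 18.1, 6.20 and 3.51 FPKM in treated and 14.6, 12.8, 8.51 and 3.67 FPKM in untreated wild type mice. The groups overlap throughout. The log2 fold change under metformin between genotypes was 0.62 ± 0.51 and that of metformin in mice labelled Ncoa5+/- was 0.37 ± 0.44, with intervals of -0.46 to 1.70 and -0.56 to 1.31. The first was 0.16 without treated wild type mouse 3 and 1.20 without treated wild type mouse 1, and the second 0.06 without untreated mouse 5 labelled Ncoa5+/-, 0.20 without treated mouse 4 and 0.54 without treated mouse 5 labelled Ncoa5+/-.

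Smad7, the inhibitory SMAD that shuts the BMP receptor down, overlapped between genotypes at 20 weeks, with 5.81, 6.85, 7.24 and 3.76 FPKM in mice labelled Ncoa5+/- and 6.54, 7.02, 4.97 and 2.87 FPKM in wild type mice (log2 fold change 0.15 ± 0.26, adjusted p = 0.83). At 39 weeks it read 6.75, 6.22, 5.05, 9.60 and 6.19 FPKM in treated and 7.82, 13.3, 8.01, 14.2 and 3.25 FPKM in untreated mice labelled Ncoa5+/-, against 8.89, 2.78 and 3.09 FPKM in treated and 6.64, 5.22, 5.64 and 3.47 FPKM in untreated wild type mice. Only untreated mice labelled Ncoa5+/- had values above 10 FPKM, in 2 of 5, and the lowest of that group was below every untreated wild type mouse. Over both treatments the log2 fold change of genotype was 0.57 ± 0.25 (SE; unadjusted p = 0.0417, adjusted p = 0.764), and it kept a value of 0.44 to 0.79 with any 1 mouse left out.

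**Figure D2:**
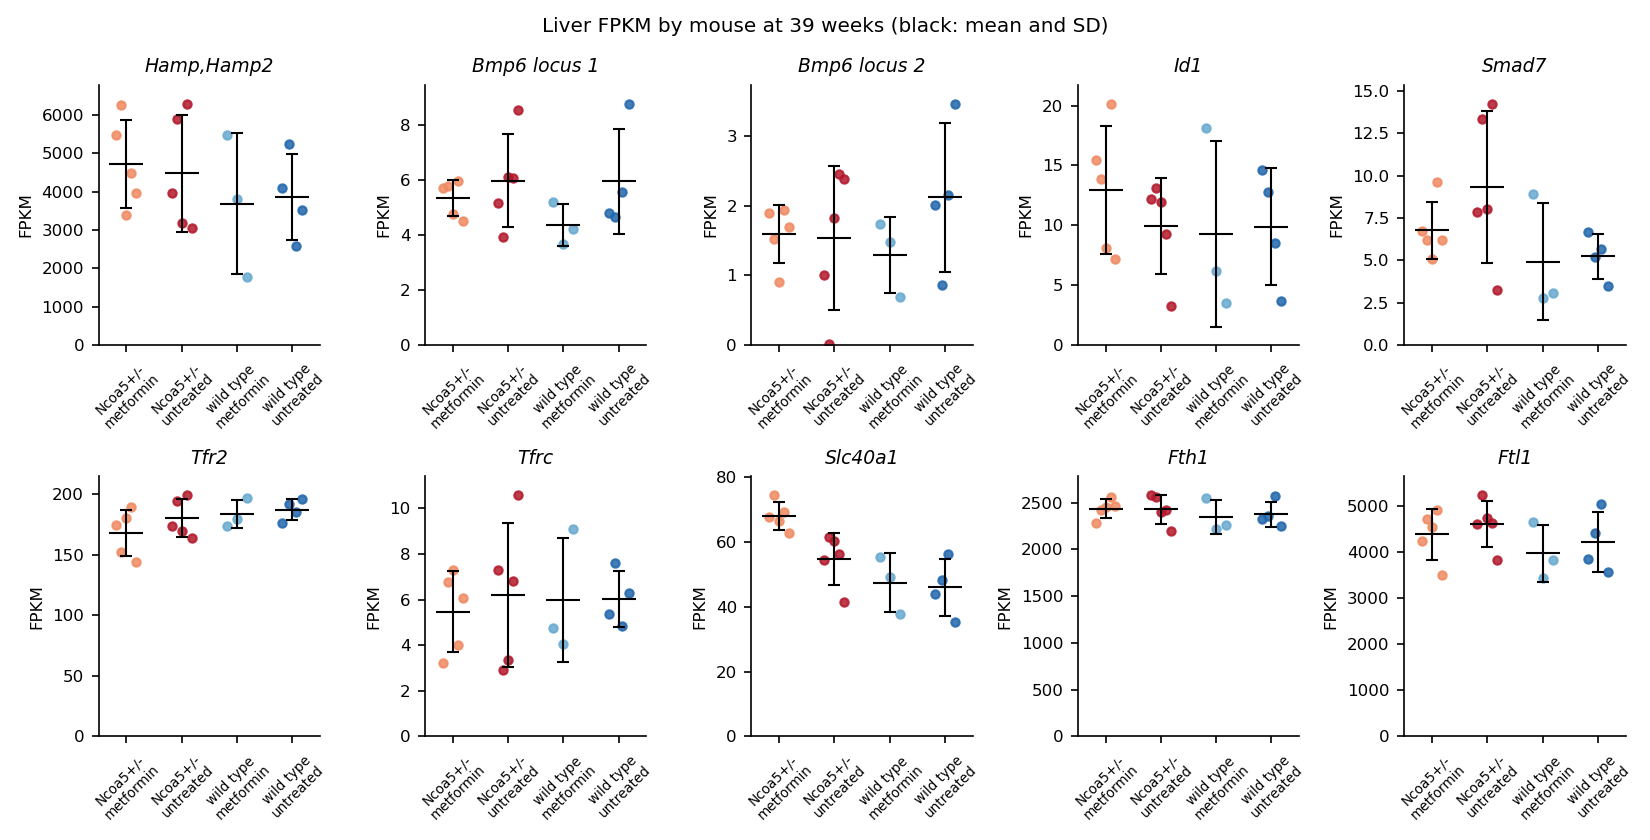
FPKM of each locus in each mouse at 39 weeks (y axis from 0, a scale per panel), from left to right in mice labelled Ncoa5+/- with and without metformin and in wild type mice with and without metformin, with the mean and SD in black (n = 5, 5, 3 and 4). Slc40a1 reads 62.7 to 74.5 FPKM in treated mice labelled Ncoa5+/-, above every other mouse of the cohort, while Fth1 stays between 2197 and 2578 FPKM in all 17 mice.

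Tfr2, which senses transferrin-bound iron on hepatocytes and feeds into Hamp, was among the steadiest of the genes. It read 135, 98.7, 109.9 and 112 FPKM in mice labelled Ncoa5+/- and 127, 106, 148 and 135 FPKM in wild type mice at 20 weeks. At 39 weeks it averaged 168 ± 19.1 and 180.0 ± 15.8 FPKM in treated and untreated mice labelled Ncoa5+/-, and 183 ± 11.7 and 187 ± 8.52 FPKM in treated and untreated wild type mice. Its 39-week intervals were narrow: the log2 fold change of genotype over both treatments was -0.09 ± 0.06 (95% interval -0.23 to 0.04) and that of metformin over both genotypes -0.07 ± 0.06 (95% interval -0.20 to 0.07).

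Tfrc, the receptor that brings transferrin iron into cells, was the gene without overlap at 20 weeks. It read 6.73, 10.1, 7.25 and 5.76 FPKM in mice labelled Ncoa5+/- and 5.62, 5.58, 3.42 and 4.95 FPKM in wild type mice, with every mouse of the first group above every mouse of the second. The mean ratio was 1.53 and the log2 fold change 0.52 ± 0.19 (SE; 95% interval 0.09 to 0.94; unadjusted p = 0.0235). It was 0.34 (unadjusted p = 0.162) without wild type mice 3 and 4, 0.38 without wild type mouse 3 alone (unadjusted p = 0.0657) or without mouse 2 labelled Ncoa5+/- (unadjusted p = 0.0636), and 0.33 with a pseudocount of 5. It did not pass correction (adjusted p = 0.603), and groups without overlap in this direction made up 2.96% of the 10963 tested loci. In the authors' deposited table the log2 fold change is 0.56 with q = 0.174.

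At 39 weeks the order of Tfrc was not seen. It read 3.20, 6.75, 7.30, 4.03 and 6.06 FPKM in treated and 7.30, 2.92, 3.34, 6.82 and 10.6 FPKM in untreated mice labelled Ncoa5+/-, against 4.76, 4.05 and 9.07 FPKM in treated and 5.34, 7.61, 4.82 and 6.30 FPKM in untreated wild type mice. The groups overlap, the log2 fold change of genotype over both treatments was -0.08 ± 0.23 (95% interval -0.56 to 0.41), and the genotype difference at 20 weeks was not tested against that at 39 weeks, because the cohorts were sequenced apart.

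Slc40a1, which encodes ferroportin, the only known cellular iron exporter, was the gene nearest to a call at 39 weeks. Treated mice labelled Ncoa5+/- read 67.7, 74.5, 66.7, 69.4 and 62.7 FPKM, and untreated mice labelled Ncoa5+/- read 54.4, 61.7, 60.5, 56.3 and 41.5 FPKM. Wild type mice read 55.5, 49.3 and 37.7 FPKM when treated and 43.9, 48.5, 56.5 and 35.3 FPKM when untreated. Every treated mouse labelled Ncoa5+/- was above every mouse of the other groups, which overlap among themselves.

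Between genotypes under metformin the log2 fold change of Slc40a1 was 0.53 ± 0.15 (SE; 95% interval 0.21 to 0.85; unadjusted p = 0.00323, adjusted p = 0.577), a mean ratio of 1.44. Groups without overlap in this direction made up 2% of the 11441 tested loci. Metformin in mice labelled Ncoa5+/- gave 0.32 ± 0.13 (unadjusted p = 0.0273, adjusted p = 0.526), where 0.804% of loci had groups without overlap in this direction, and the authors' deposited table gives 0.29 with q = 0.604. Without metformin the genotype difference was 0.25 ± 0.14 (adjusted p = 0.913), and metformin in wild type mice gave 0.05 ± 0.16 (95% interval -0.29 to 0.38). The difference between the genotypes in their response to metformin was 0.27 ± 0.21 (SE; 95% interval -0.16 to 0.71; adjusted p = 0.991).

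Over both treatments Slc40a1 averaged 61.5 FPKM in mice labelled Ncoa5+/- and 46.8 FPKM in wild type mice, a log2 fold change of 0.39 ± 0.10 (SE; 95% interval 0.17 to 0.61; unadjusted p = 0.00167, adjusted p = 0.169). It did not pass under any of 27 alternative settings, with log2 values of 0.31 to 0.45 and adjusted p of 0.0581 to 0.456. The lowest of these came without mouse 5 of the untreated group labelled Ncoa5+/-. At 20 weeks there was no such order: Slc40a1 read 38.6, 39.7, 37.8 and 47.2 FPKM in mice labelled Ncoa5+/- and 30.2, 45.2, 49.0 and 46.9 FPKM in wild type mice (log2 fold change -0.05 ± 0.17, 95% interval -0.44 to 0.34).

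Ferroportin is made by Kupffer cells, the liver macrophages, as well as by hepatocytes, and in whole liver fewer cells of a type and less RNA per cell cannot be told apart. The summed FPKM of 12 Kupffer cell and macrophage markers had a range of 280 to 388 in treated and 155 to 424 in untreated mice labelled Ncoa5+/-, and of 304 to 381 in treated and 246 to 611 in untreated wild type mice. None of the 12 was at 0 in every mouse of any group. Between genotypes over both treatments 12 of 12 of these markers had log2 fold changes below 0 (median -0.21), against 6403 of 11441 loci (median -0.01), the opposite side from Slc40a1. Between untreated genotypes 12 of 12 were below 0 (median -0.35), but under metformin 9 of 12 (median -0.04), beside 6339 and 5930 of 11441 loci. Under metformin 9 of 11 liver endothelial, 5 of 8 stellate and 4 of 5 erythroid markers were above 0 between genotypes (medians 0.05, 0.03 and 0.03). For metformin in mice labelled Ncoa5+/- 11 of 12 Kupffer cell and macrophage markers were above 0 (median 0.27), the same side as Slc40a1. So were 9 of 11 liver endothelial markers (median 0.26), 6 of 8 stellate markers (median 0.24) and 4 of 5 erythroid markers (median 0.28), beside 5719 of 11441 loci. In wild type mice metformin gave 7 of 12, 6 of 11, 6 of 8 and 3 of 5 above 0 for these 4 lists (medians 0.05, 0.02, 0.07 and 0.12). Untreated mouse 2 labelled Ncoa5+/- had the lowest Kupffer and endothelial sums of the cohort, 155 and 97.7 FPKM. The other untreated mice labelled Ncoa5+/- had Kupffer sums of 245 to 424 FPKM, beside 280 to 388 FPKM in treated ones. Their endothelial sums were 174 to 198 FPKM, beside 182 to 209 FPKM in treated ones. The part of these cell types in the result was not tested.

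Fth1 and Ftl1, the heavy and light chains of ferritin, the cell's iron store, stayed close between groups at 39 weeks. Fth1 read 2286, 2418, 2452, 2558 and 2468 FPKM in treated and 2578, 2563, 2396, 2416 and 2197 FPKM in untreated mice labelled Ncoa5+/-, against 2553, 2216 and 2263 FPKM in treated and 2325, 2354, 2566 and 2249 FPKM in untreated wild type mice. All 17 mice lay within 1.17-fold of each other. The log2 fold change of genotype over both treatments was 0.05 ± 0.05 (95% interval -0.06 to 0.15) and that of metformin over both genotypes -0.01 ± 0.05 (95% interval -0.12 to 0.10), the narrowest intervals of the 10 loci.

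Fth1 was far less even at 20 weeks, with 1134, 1666, 2036 and 2183 FPKM in mice labelled Ncoa5+/- and 1669, 2317, 1295 and 793 FPKM in wild type mice. The groups overlap, and the log2 fold change was 0.27 ± 0.35 (95% interval -0.52 to 1.05; adjusted p = 0.763). Ftl1 at that age read 1795, 2264, 2341 and 2509 FPKM in mice labelled Ncoa5+/- and 2509, 2238, 1967 and 1664 FPKM in wild type mice, within 1.51-fold over all 8 mice. At 39 weeks Ftl1 read 4239, 4715, 4525, 4909 and 3489 FPKM in treated and 4604.5, 5221, 4735, 4618 and 3827 FPKM in untreated mice labelled Ncoa5+/-, against 4645, 3428 and 3815 FPKM in treated and 3839, 4399.6, 5025 and 3568 FPKM in untreated wild type mice. The groups overlap, with a log2 fold change of genotype over both treatments of 0.14 ± 0.10 (adjusted p = 0.958). Near-identical ferritin pseudogenes exist in the mouse genome, so reads of both chains may be shared with other loci.

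The 10 genes are set here against all loci. At 20 weeks limma (adjusted p under 0.05, Benjamini-Hochberg) called 0 of 9 tested genes and 0% of 10963 loci, with 1 gene (Tfrc) against 7.48% of loci at an unadjusted p under 0.05. Between untreated genotypes at 39 weeks it called 0 of 10 member loci against 0.262% of 11441 loci, with 0 against 5.62% at the unadjusted threshold. Under metformin the genotypes gave 0 of 10 against 0.157%, with 1 (Slc40a1) against 4.35% unadjusted. Metformin in mice labelled Ncoa5+/- gave 0 of 10 against 0%, with 1 (Slc40a1) against 8.83% unadjusted, and in wild type mice 0 of 10 against 0%, with 0 against 9.35% unadjusted. Genotype over both treatments gave 0 of 10 against 0.516%, with 2 (Slc40a1 and Smad7) against 6.2% unadjusted. Metformin over both genotypes gave 0 of 10 against 0.035%, with 0 against 15.2% unadjusted, and the interaction gave 0 of 10 against 0%, with 0 against 2.79% unadjusted.

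The signs of the member loci were as follows. At 20 weeks 6 of 9 had log2 fold changes above 0 (median 0.15), beside 54.4% of all tested loci (median 0.03). Genotype over both treatments at 39 weeks had 7 of 10 above 0 (median 0.13), beside 44.0% of all loci (median -0.01). Between untreated genotypes 7 of 10 were above 0 (median 0.03) and under metformin 8 of 10 (median 0.22), beside 44.4% and 47.7% of all loci. Metformin over both genotypes had 2 of 10 above 0 (median -0.07), beside 48.5% of all loci. Metformin in wild type mice had 9 of 10 below 0 (median -0.12), where 47.1% of all loci were above 0 (median -0.01). The exception there was Slc40a1 at 0.05. In mice labelled Ncoa5+/- metformin split the loci 5 to 5, and the interaction had 7 of 10 above 0, beside 52.3% of all loci.

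**Figure D3:**
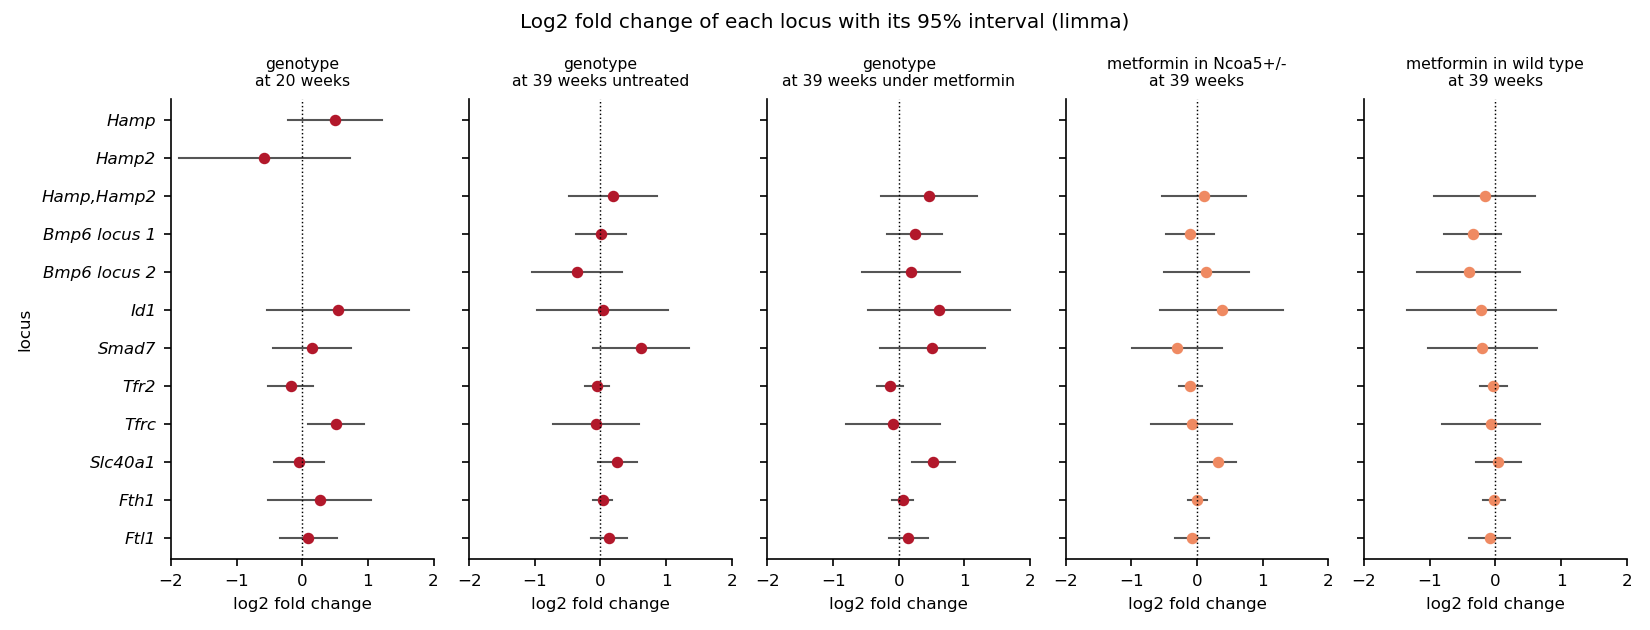
Log2 fold change (x axis, log2(FPKM + 1) scale) of each tested locus with its 95% interval from limma, in 5 comparisons of groups; red points are mice labelled Ncoa5+/- over wild type and orange points are metformin over untreated. The intervals of Tfrc at 20 weeks and of Slc40a1 under metformin and with metformin in mice labelled Ncoa5+/- lie above 0 before correction, and those of Fth1 at 39 weeks are the shortest.

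The spread between mice of the same group sets these intervals, and it differed widely among the genes. Id1 had a within-group SD of 0.80 on the log2 scale at 20 weeks and 0.76 at 39 weeks, above at least 95.9% of tested loci in each cohort. At 39 weeks the joint hepcidin locus (0.51), Smad7 (0.56) and Tfrc (0.50) were also more variable than 94.0% or more of the 11441 loci, where the median SD was 0.18. So was the second Bmp6 locus (0.52), whose values were low. Hamp2 had the largest SD of the 10 genes at 20 weeks, 0.97. Tfr2 (0.19 and 0.12) lay below the median in both cohorts, and Slc40a1 (0.24 and 0.22) and Ftl1 (0.23 and 0.20) lay near it. Fth1 differed most between the cohorts, with an SD of 0.55 at 20 weeks, above 90.7% of loci, and 0.08 at 39 weeks, above 3.84%.

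**Figure D4:**
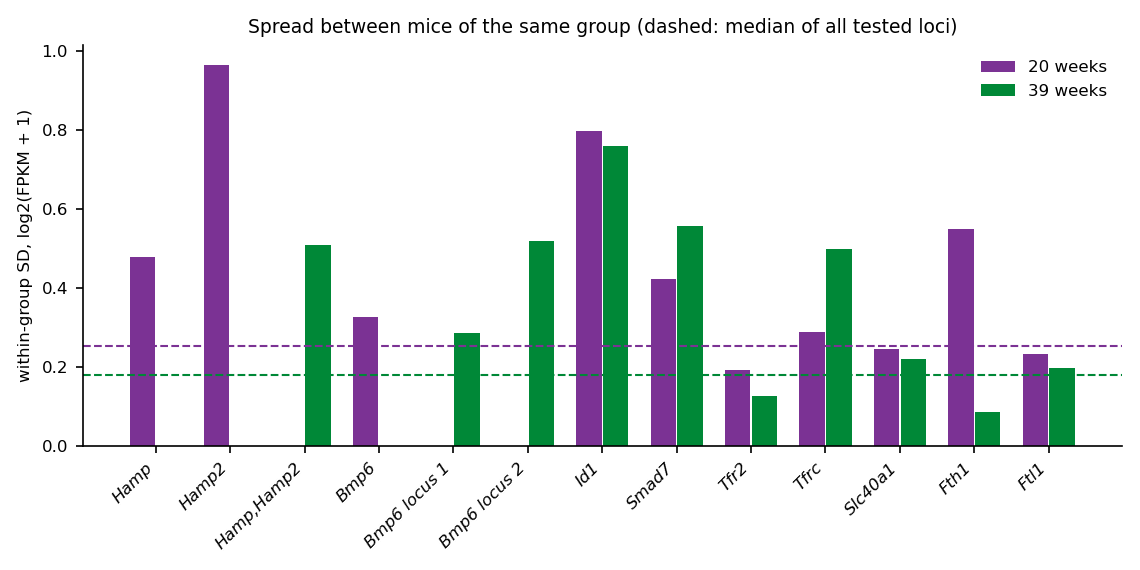
Within-group SD of log2(FPKM + 1) (y axis) for each locus at 20 weeks (purple) and 39 weeks (green), with dashed lines at the median over all tested loci of the cohort. Id1 stands near 0.8 in both cohorts, and Fth1 stands at 0.55 at 20 weeks and at 0.08 at 39 weeks.

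Mice that were high for one BMP target tended to be high for the other. With group means removed, Id1 and Smad7 correlated over the 17 mice at 39 weeks (Pearson r = 0.81, permutation p = 0.00231, adjusted p = 0.0208 over 9 pairs; Spearman rho = 0.77, permutation p = 0.00277, adjusted p = 0.0249). Without the 2 mice farthest from the median of Id1, r was 0.69 (permutation p = 0.0476), and with any 1 mouse left out it was 0.73 to 0.87. Over the 8 mice at 20 weeks r was 0.79 (exact permutation p = 0.00521, adjusted p = 0.0521 over 10 pairs; rho = 0.71, exact permutation p = 0.0781), and 0.69 without the 2 farthest mice (exact permutation p = 0.361). Both genes are low in mouse 5 of the untreated group labelled Ncoa5+/- (3.28 FPKM of Id1 and 3.25 FPKM of Smad7) and high in mouse 1 of the treated wild type group (18.1 and 8.89 FPKM).

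Hepcidin had positive correlations with both targets, but none of them passed correction over the pairs of its cohort, and no correlation was tested against another. Over the 17 mice its locus and Id1 gave r = 0.64 (permutation p = 0.0299, adjusted p = 0.0897) and rho = 0.61 (permutation p = 0.0337), and without the 2 farthest mice, both treated wild type mice, r was 0.49 (permutation p = 0.119), and with any 1 mouse left out it was 0.52 to 0.71. Hepcidin and Smad7 gave r = 0.62 (permutation p = 0.0426, adjusted p = 0.0958) and rho = 0.60 (permutation p = 0.0457), and r = 0.59 without the same mice (permutation p = 0.0607). At 20 weeks Hamp and Id1 gave r = 0.88 (exact permutation p = 0.0278, adjusted p = 0.139) and rho = 0.83 (exact permutation p = 0.0226), which was 0.67 without the 2 farthest mice (exact permutation p = 0.306). Hamp and Smad7 at that age gave r = 0.52 (exact permutation p = 0.217).

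No relation of the ligand with its targets passed the test, for which Bmp6 at 39 weeks was its first locus alone. Bmp6 and Id1 gave r = -0.37 at 39 weeks (permutation p = 0.194) and -0.32 at 20 weeks (exact permutation p = 0.384), Bmp6 and Smad7 gave -0.34 (permutation p = 0.269) and -0.59 (exact permutation p = 0.215), and Bmp6 and hepcidin gave -0.16 (permutation p = 0.563) and -0.26 (exact permutation p = 0.385). At 39 weeks the highest Bmp6 values, 8.78 and 8.56 FPKM, belong to mice that are low in both targets: mouse 4 of the untreated wild type group had 3.67 FPKM of Id1 and 3.47 FPKM of Smad7, and mouse 5 of the untreated group labelled Ncoa5+/- is the mouse described above. Without these 2 mice the sign of the Bmp6 and Id1 correlation was positive, at 0.39 (permutation p = 0.198).

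**Figure D5:**
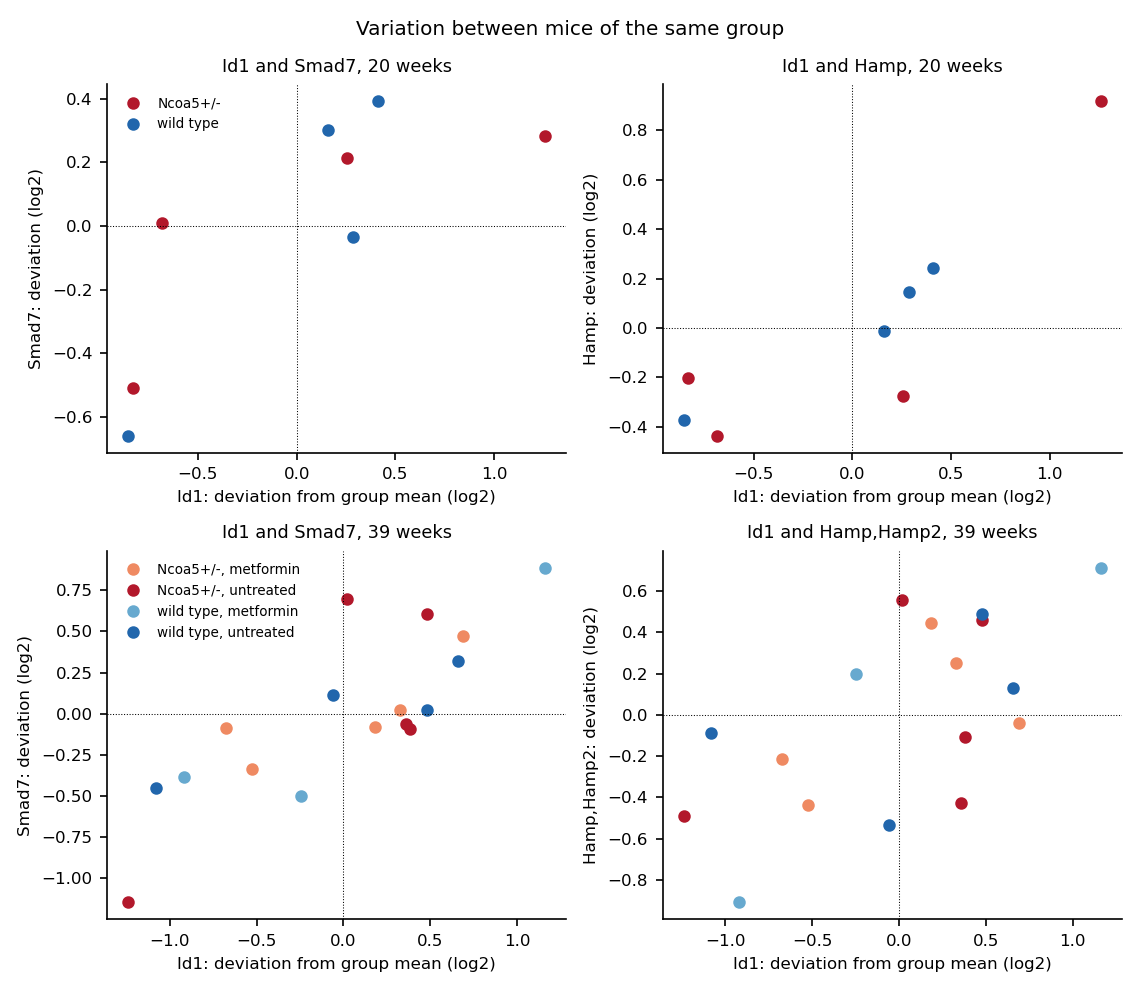
Each point is a mouse, placed by its deviation from its group mean on the log2(FPKM + 1) scale: Id1 on the x axes, Smad7 on the left and hepcidin on the right, with 8 mice at 20 weeks above and 17 mice at 39 weeks below, coloured by group. Id1 and Smad7 run along a diagonal at 39 weeks (r = 0.81), and hepcidin is plotted beside them (r = 0.64).

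Hepcidin was set against 2 further partners. Socs3, a target of STAT3, gave r = 0.44 with the hepcidin locus at 39 weeks (permutation p = 0.0796, adjusted p = 0.143) and 0.27 with Hamp at 20 weeks (exact permutation p = 0.625). Socs3 reached 33.7 FPKM in mouse 2 of the untreated wild type group and 18.2 FPKM in mouse 2 of the untreated group labelled Ncoa5+/-, and both mice were at or near the top of their group for hepcidin, with 5255 and 5897 FPKM. Tfrc and hepcidin gave r = -0.33 (permutation p = 0.269) at 39 weeks and -0.06 (exact permutation p = 0.908) at 20 weeks. Tfrc and Slc40a1 gave r = -0.60 at 39 weeks (permutation p = 0.0143, adjusted p = 0.0643), -0.44 without the 2 farthest mice (permutation p = 0.114), and -0.51 at 20 weeks (exact permutation p = 0.184). Any part of their hairpins in this was not tested.

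Among all 11440 other tested loci at 39 weeks, those whose deviations correlated most with hepcidin over the 17 mice were Apoa5 (r = 0.84), Id3 (0.82), Trappc6b (0.80), Plet1 (0.78) and Mfsd10 (0.75). They were chosen as the highest of many and carry no test. Over the 8 mice at 20 weeks their correlations with Hamp were 0.24 for Apoa5, 0.80 for Id3, 0.33 for Trappc6b, -0.86 for Plet1 and 0.63 for Mfsd10. Id3 is, like Id1, a BMP target. Id3 read 34.2, 62.7, 117 and 49.3 FPKM in mice labelled Ncoa5+/- at 20 weeks, with its peak in the mouse that has the Hamp peak, and 28.4, 71.5, 40.4 and 38.3 FPKM in wild type mice.

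Wider iron pathways were described by lists of which the members above form part. No gene of any of the 9 lists passed limma's adjusted p in any comparison. Among ligands, receptors and regulators of hepcidin the metformin comparison over both genotypes came nearest: Furin, a protease that cleaves hepcidin and hemojuvelin, averaged 74.4 FPKM in treated and 88.6 FPKM in untreated mice (log2 fold change -0.25 ± 0.05, adjusted p = 0.0718), and Bmp7, another BMP ligand, averaged 1.19 and 1.63 FPKM (-0.26 ± 0.07, adjusted p = 0.0952). Of the 20 tested genes of that list 13 had fold changes above 0 (median 0.02) with metformin, 6 with genotype over both treatments (median -0.04), and 7 of 17 with genotype at 20 weeks (median -0.10). All tested loci had medians of -0.0046, -0.01 and 0.03 in these comparisons.

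SMADs and BMP targets had 10 of 13 genes above 0 with genotype over both treatments (median 0.04), 7 of 13 with metformin (median 0.04) and 9 of 13 with genotype at 20 weeks (median 0.15). The IL-6 and STAT3 arm had 13 of 15 genes below 0 with genotype over both treatments (median -0.10), 9 of 15 below 0 with metformin (median -0.12) and 10 of 15 above 0 with genotype at 20 weeks (median 0.30). Within it Crp, C-reactive protein, averaged 160 FPKM in mice labelled Ncoa5+/- and 195 FPKM in wild type mice at 39 weeks (-0.27 ± 0.11, adjusted p = 0.62).

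Of the iron uptake, transport and export list, 11 of 15 genes were below 0 with genotype over both treatments (median -0.05), with Slc40a1 the gene of smallest p, 10 of 15 were below 0 with metformin (median -0.03), and 8 of 15 with genotype at 20 weeks (median -0.03). With metformin over both genotypes Snx3, which recycles the transferrin receptor, averaged 57.5 FPKM in treated and 66.1 FPKM in untreated mice (-0.20 ± 0.06, adjusted p = 0.118). At 20 weeks Cp, the ferroxidase ceruloplasmin, averaged 506 ± 94.0 FPKM in mice labelled Ncoa5+/- and 307 ± 121 FPKM in wild type mice (0.79 ± 0.29, unadjusted p = 0.0234, adjusted p = 0.603).

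Storage and ferritin turnover, a list that also holds Hamp2 (the joint hepcidin locus at 39 weeks), had 7 of 8 genes above 0 with genotype over both treatments (median 0.11), 7 of 8 below 0 with metformin (median -0.05) and 5 of 8 above 0 with genotype at 20 weeks (median 0.10). Without Hamp2 these were 6 of 7 above 0 (median 0.09), 6 of 7 below 0 (median -0.08) and 5 of 7 above 0 (median 0.11). Nfe2l2, which encodes the factor NRF2 that drives ferritin transcription, averaged 44.3 FPKM in mice labelled Ncoa5+/- and 31.0 FPKM in wild type mice at 39 weeks (0.51 ± 0.12, adjusted p = 0.0996). Ncoa4, the receptor that sends ferritin to the lysosome, averaged 38.4 ± 4.87 FPKM in mice labelled Ncoa5+/- and 25.8 ± 3.78 FPKM in wild type mice under metformin (0.56 ± 0.21, adjusted p = 0.962), without overlap, as in 2% of loci. Its other log2 differences were -0.19 between untreated genotypes, -0.63 between genotypes at 20 weeks, -0.59 with metformin in wild type mice and 0.16 with metformin in mice labelled Ncoa5+/-.

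The list named after iron regulatory proteins holds Aco1 and Ireb2, which encode these proteins, and genes of other kinds, such as Epas1. Of its 9 genes 6 were below 0 with genotype over both treatments (median -0.02). With metformin 5 of 9 were above 0 (median 0.0036), and with genotype at 20 weeks 8 of 9 (median 0.14). Aco1 and Ireb2 themselves gave -0.09 and -0.02, then -0.07 and 0.14, then 0.13 and 0.07 in these comparisons. Epas1, the hypoxia factor HIF-2α, averaged 39.7 FPKM in mice labelled Ncoa5+/- and 46.0 FPKM in wild type mice at 39 weeks (-0.21 ± 0.06, adjusted p = 0.214). Haem synthesis had 6 of 10 genes below 0, 5 of 10 below 0 and 6 of 10 above 0 in the same 3 comparisons (medians -0.04, -0.01 and 0.01).

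Haem uptake, export and breakdown had 8 of 12 below 0 with genotype over both treatments, 7 of 12 below 0 with metformin and 9 of 11 above 0 with genotype at 20 weeks (medians -0.07, -0.01 and 0.17). Lrp1, the receptor for haem-loaded hemopexin, averaged 199 FPKM in treated and 271 FPKM in untreated mice at 39 weeks (-0.46 ± 0.12, adjusted p = 0.105). Iron-sulfur cluster assembly had 13 of 22 above 0, 9 of 22 above 0 and 14 of 22 above 0 (medians 0.01, -0.02 and 0.03).

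Markers of liver cell types gave the setting of these values. Of 10 hepatocyte markers Alb and Serpina1a are listed at 0 in every mouse, Apoa1 at 0 in all but the 39-week wild type groups, and Ttr at 0 in the 20-week wild type mice and in both 39-week groups labelled Ncoa5+/-, zeros for genes that every liver uses. The 6 others summed to 5577 to 8050 FPKM in mice labelled Ncoa5+/- and 4031 to 5272 FPKM in wild type mice at 20 weeks, and to 3628 to 6348 FPKM over all mice at 39 weeks. At 20 weeks the Kupffer markers summed to 59.5 to 102 FPKM in mice labelled Ncoa5+/- and 70.3 to 179 FPKM in wild type mice, with 12 of 12 below 0 (median -0.59), and 7 erythroid markers to 263 to 346 FPKM in mice labelled Ncoa5+/- and 222 to 260 FPKM in wild type mice, with 5 of 5 tested above 0 (median 0.33). Tfrc is abundant in erythroid precursors, and its values, the erythroid sums and the hepatocyte sums all do not overlap at 20 weeks. Of single tested loci, 2.96% had groups without overlap in this direction. Among mice labelled Ncoa5+/-, mouse 2 had the highest Tfrc (10.1 FPKM) and the lowest erythroid sum (263 FPKM). Mouse 4 had the lowest Tfrc (5.76 FPKM) and the highest erythroid sum (346 FPKM). Wild type mouse 1 was the highest of its group for both (5.62 and 260 FPKM). The part of erythroid cells in the result was not tested. Endothelial markers, of the cells that make BMP6, had 9 of 11 below 0 (median -0.27) and stellate markers 5 of 6 (median -0.12) at that age. At 39 weeks, between untreated genotypes, 10 of 11 endothelial, 5 of 8 stellate and 5 of 5 erythroid markers were below 0 (medians -0.18, -0.08 and -0.13).

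The FPKM of all loci added up to 695645 to 1613500 in the 8 younger mice and to 857291 to 2089980 in the 17 older mice, and the 10 loci took 0.347% to 1.43% of these sums. In 3 libraries (wild type mouse 4 at 20 weeks, mouse 3 of the untreated and mouse 5 of the treated group labelled Ncoa5+/- at 39 weeks) the 50 highest loci took over 70% of the sum. Without these, Slc40a1 gave 0.39 for genotype over both treatments and Hamp gave 0.38 for genotype at 20 weeks. Depth is unknown, since FPKM holds no count of reads.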

How the data were processed

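Whole liver RNA of 25 mice was sequenced, the 20-week libraries on a HiSeq2500 and the 39-week libraries on a HiSeq4000, per the labels' protocols. Trimmomatic 0.33, TopHat2, Cufflinks and Cuffnorm and the build GRCm38.p5 are named in the submitters' processing notes. The deposited values per mouse are FPKM per locus; the normalization option and strand setting are not given in the sources used here. In the authors' deposited comparison tables each locus has its log2 fold change with a p-value, and a q-value after correction; their direction was turned to Ncoa5+/- over wild type and metformin over untreated. Read counts were not used here, so depth is unknown and no interval for counting error is given.

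Within each cohort, loci averaging 1 FPKM or more were kept, and loci that a whole group lists at 0 and a whole other group above 0, averaging 1 FPKM or more there (15 and 14), were left out as failed estimates, which gave 10963 and 11441 tested loci. Values were tested as log2(FPKM + 1) with limma 3.58.1 in R 4.3.3 (moderated with a mean trend; 4 groups in 1 fit at 39 weeks), and p-values were adjusted by Benjamini-Hochberg over all tested loci, with 0.05 as the threshold. A fold change on this scale understates that of low genes. Replicates are mice as labelled; where separate housing or extraction is not given, p-values measure the spread between these samples. Correlations used deviations from group means, with permutation within groups (exact at 20 weeks, 100000 draws at 39 weeks; Python 3.11.15, SciPy 1.17.1). The fit was tested on simulated data. The members and lists were chosen with earlier results of these data known. Besides all 10 genes, the text names Ncoa5, Socs3, Aco1, Ireb2 and the 5 loci most like hepcidin. From pathway lists it names some, not all, of the genes among the 2 of smallest p in a comparison. None is named from haem synthesis or iron-sulfur cluster assembly. Alternatives were the pseudocount, the filter, scaling, weights, failed estimates, the groups in the fit and mice left out. The lists were 9 iron pathway lists and 5 cell type marker lists.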

Additional observations from a re-analysis of the deposited data

Results flagged for a closer look

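Hamp reached 10122.5 FPKM in mouse 3 of the group labelled Ncoa5+/- at 20 weeks, while the other mice of that group lay between 3959 and 4652 FPKM. Its gap to the next mouse was 0.887 of the group's range, above the critical value of 0.829 for 4 samples in Dixon's test. It was the only value so found in 50 groups examined, where chance gives about 1 in 20. The same mouse had the highest Id1 (29.7 FPKM) and Id3 (117 FPKM) of its cohort and the lowest Hamp2 (22.8 FPKM). Its hepatocyte marker sum (8050 FPKM) was the highest and its endothelial marker sum (51.5 FPKM) the lowest of the cohort, and their part in the result was not tested.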

How the results depend on the processing

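None of the 10 genes passed limma's threshold in any of the 8 comparisons or under any alternative. The 79 main values and 2103 alternative values gave 0 calls, and the smallest adjusted p was 0.0581. Of the alternative values 112 had the other sign, and the largest main value so changed was that of Hamp2 at 20 weeks (-0.58). The median of all loci shifted by at most 0.034. Hamp2 at 20 weeks gave 0.06 with array weights and -1.50 without wild type mice 3 and 4, whose titles differ in form, an alternative chosen after seeing the data. Counts over all loci varied more. At 20 weeks they were 0, and 13 with failed estimates kept at 0, 4 without the libraries over 70% (wild type mouse 4), 5 without those 2 wild type mice, and 0 to 4 with 1 mouse left out. Between untreated genotypes they were 30, 11 with the compared groups alone, and 18 to 28 with 1 mouse left out (18 without wild type mouse 2 or 4). Under metformin they were 18, 10 with a pseudocount of 5, 31 with failed estimates kept, 6 with the compared groups alone, and 4 to 26 (4 without treated wild type mouse 2, 5 without mouse 3, 11 without mouse 1). With metformin in mice labelled Ncoa5+/- they were 0, and 4 with failed estimates kept; in wild type mice 0, 2 without a filter, 2 with failed estimates kept, and 0 to 1. Metformin over both genotypes gave 4, 7 without a filter, 41 with quantile normalization, 20 with array weights, 24 with failed estimates kept, 19 without the libraries over 70%, and 0 to 69 (69 without treated mouse 4 labelled Ncoa5+/-, 40 without treated wild type mouse 3). The interaction gave 0, 2 without a filter, 5 with failed estimates kept, and 0 to 1. Genotype over both treatments gave 59, and 45 to 68 with 1 mouse left out. The cause was not tested. No paired analysis was possible because replicate numbers only follow accession order.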
